A study of Homo sapiens with 114 samples.

Results

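The genes described here repair DNA breaks by homologous recombination or act in the Fanconi anaemia pathway for DNA interstrand crosslinks. A list of 33 such genes was set by name, and 29 of them had at least 1 probe set on the array that carried that symbol alone, of 19775 genes on the array with such a probe set. The other 4 were not analysed here. The 29 comprised 4 genes of end resection and break sensing (NBN, MRE11, RAD50, EXO1), 3 checkpoint kinases (ATM, ATR, CHEK1), 4 of the BRCA complexes (BRCA1, BARD1, BRIP1, PALB2) and 6 of strand pairing and exchange (RAD51C, XRCC2, XRCC3, RAD51AP1, RAD54L, RAD54B). There were also 3 of junction dissolution and alternative end joining (BLM, RMI1, POLQ) and 7 of the Fanconi core complex (FANCB, FANCC, FANCE, FANCF, FANCG, FANCL, FANCM). The last were FANCI, part of the substrate of that complex, and UBE2T, the ubiquitin-conjugating enzyme that works with the complex.

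HK-2, an immortalised cell line derived from the proximal tubule of the human kidney, was exposed to 9 compounds that the labels give as CsA, Aa, Nnm, Kbr, Ota, Fk, Ra, CdCl and Di. These abbreviations are used as they stand. For Kbr, Nnm and Aa there was a low and a high dose, each at 24 and 48 h, and Ota had both doses at 24 and 72 h. A single dose was used for Di, CdCl, Ra, Fk and CsA, at 12 and 48 h. Control cultures received the vehicle for the same time. Nnm and Kbr shared their controls, as did Fk and Ra, and CdCl and Di, so that 6 control families resulted. Each of the 26 treated and 12 control groups had 3 arrays, which the labels call biological replicates, and all 38 groups were of the same cell line in the same medium. The cells were already near confluence when treatment began, per the labels. The amounts behind the words low and high are not used here, so doses of different compounds are not matched.

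In homologous recombination, the ends of a broken chromosome are trimmed to single strands, these are prepared for pairing with the help of the BRCA proteins, and the intact sister copy serves as template. BLM with its partner RMI1 takes the joined molecules apart, while POLQ joins trimmed ends through short stretches of matching bases, without the sister. The Fanconi core complex, with UBE2T as its ubiquitin-conjugating enzyme, marks FANCI and its partner at a crosslink and so starts its removal. Many of these genes are transcribed mainly in the S and G2 phases of the cell cycle, when a sister copy is present, and cultured epithelial cells leave the cycle as they become crowded.

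Promoters are shown for 4 members whose levels carried the results below and which differ in cell-cycle motif. The windows are 300 bases long, from 250 before to 50 after the start site, from RefSeq on GRCh38.p14, on the strand of the gene and 5′ to 3′. They lie at chr3:121545939-121546238 (minus strand) for POLQ, chr1:241847954-241848253 (plus) for EXO1, chr15:90717096-90717395 (plus) for BLM and chr9:95317660-95317959 (minus) for FANCC. Capitals mark matches, on either strand, to an E2F motif (TTTCCCGC, TTTCGCGC, TTTGCCGC or TTTGGCGC), to the CCAAT box (CCAAT) or to the CHR element (TTTGAA), which were searched as these letters and overlap nowhere in the 4 windows.
POLQ: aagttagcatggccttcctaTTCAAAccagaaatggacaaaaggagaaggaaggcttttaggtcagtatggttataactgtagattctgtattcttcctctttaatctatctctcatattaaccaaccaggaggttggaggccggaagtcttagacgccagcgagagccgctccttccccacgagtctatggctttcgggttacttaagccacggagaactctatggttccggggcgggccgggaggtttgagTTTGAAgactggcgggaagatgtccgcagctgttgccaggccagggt
EXO1: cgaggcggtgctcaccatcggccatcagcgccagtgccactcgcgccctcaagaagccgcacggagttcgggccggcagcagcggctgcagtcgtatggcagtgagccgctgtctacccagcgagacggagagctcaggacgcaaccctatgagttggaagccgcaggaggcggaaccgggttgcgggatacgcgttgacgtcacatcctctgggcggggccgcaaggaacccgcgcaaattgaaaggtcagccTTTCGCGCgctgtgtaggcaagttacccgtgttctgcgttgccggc
BLM: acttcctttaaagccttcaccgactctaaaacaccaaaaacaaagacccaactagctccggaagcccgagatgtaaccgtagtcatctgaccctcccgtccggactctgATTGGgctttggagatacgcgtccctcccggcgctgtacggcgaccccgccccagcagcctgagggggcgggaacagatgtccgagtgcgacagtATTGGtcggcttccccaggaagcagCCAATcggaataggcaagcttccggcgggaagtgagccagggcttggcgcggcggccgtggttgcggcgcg
FANCC: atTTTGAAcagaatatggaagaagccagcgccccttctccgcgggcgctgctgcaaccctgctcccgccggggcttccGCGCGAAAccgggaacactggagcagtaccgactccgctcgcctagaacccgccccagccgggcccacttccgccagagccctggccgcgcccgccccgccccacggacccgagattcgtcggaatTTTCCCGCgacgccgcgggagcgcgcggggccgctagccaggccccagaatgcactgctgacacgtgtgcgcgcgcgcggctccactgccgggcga

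RefSeq windows were matched for 26 members. An E2F motif was in 3 of them, which is 11.5%, against 3.33% of all 27305 promoters. The CCAAT box was in 13 (50%, against 35.7%) and the CHR letters were in 5 (19.2%, against 15.4%). Such a match describes the letters of a window and is not a binding site. The 3 members with an E2F motif, EXO1, FANCC and XRCC2, did not share a direction: with Aa at the high dose for 48 h, for instance, EXO1 and XRCC2 rose and FANCC fell.

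All values are log2 levels, on which 1 unit is a 2-fold difference, and a level below 4 was taken as array background. A gene was called when its adjusted p was under 0.05 in limma's moderated test, with Benjamini-Hochberg adjustment over all genes of the comparison. No 2 arrays were identical. Upper quartiles of the arrays ran from 6.09 to 7.18 with a median of 7.00. The lowest was replicate 2 of Ra at 48 h, and the 3 arrays of Ota at the high dose for 24 h lay between 6.32 and 6.59. Upper quartiles were also clear of the controls, and lower, with Kbr high at 24 and 48 h, Ota high at 72 h, CdCl at 12 h and Di at 48 h (means 6.82 to 6.94, against 6.97 to 7.06), and higher with Ota low at 72 h (7.15 against 7.04). Their part in the results below was not tested. Replicate 2 of Nnm stood apart in its correlation, over 1 probe set per gene, with the nearest array of its group. The values were 0.9816 and 0.9857 at the high dose and 0.9927 and 0.9933 at the low dose. The other Nnm arrays were at 0.9959 or more. Results on Nnm are given with and without replicate 2. Other arrays under 0.990 were replicate 3 of the 4 CsA and CsA control groups (0.9851 to 0.989), replicate 3 of Fk at 12 h (0.9824), and replicate 2 of Ra at 48 h (0.9835) and of Ota high at 24 h (0.9857). The difference between the 3′ and 5′ probe sets of ACTB, a sign of RNA quality, ran from 0.720 to 2.30. It was apart from the controls with Ota at the high dose for 72 h, at 1.93 against 1.36 ± 0.182 (SD, n = 3), and with Di at 12 h, at 1.43 against 1.95 ± 0.132. Of 15 proximal tubule and epithelial markers, 6 had a mean above 4 in the controls (PAX8, KRT8, KRT18, KRT19, CDH1 and EPCAM), while the brush-border genes ANPEP, AQP1, GGT1, LRP2 and CUBN were at background. Of 9 markers of other cell types COL1A1 (8.15) and ACTA2 (6.50) were above it. In such bulk RNA, fewer cells in a state and less RNA per cell cannot be told apart.

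The comparison of each treated group with the control of its time asked which compounds moved the repair genes. In 754 tests (29 genes in 26 comparisons), 131 calls were of higher and 112 of lower levels. The share of all genes called ran from 0% to 29.8% higher and from 0% to 43.6% lower over these comparisons. The totals alone therefore do not set the members apart from other genes, and the shares are given with each comparison below. Each of the 29 was called at least once. There were 21 that rose in some comparisons and fell in others, 3 that were called only as higher (FANCB, XRCC2, XRCC3) and 5 only as lower (NBN, FANCL, FANCF, PALB2, ATM). POLQ, the polymerase of alternative end joining, was called most often, in 15 comparisons, followed by EXO1, the resection nuclease, and the helicase BLM in 13 each. POLQ had 2 probe sets, and these calls are on the brighter one. With the mean of both, its calls were lost for Aa low at 24 h and for Nnm at either dose at 48 h. In 7 comparisons no member was called by limma (CsA at both times, Fk at both times, Ra at 12 h, and the low doses of Kbr and Nnm at 24 h). That test took no account of replicate numbers. With the replicate number as a block, members were called for CsA at 48 h and for Kbr low and Nnm low at 24 h, with counts given below.

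**Figure D1:**
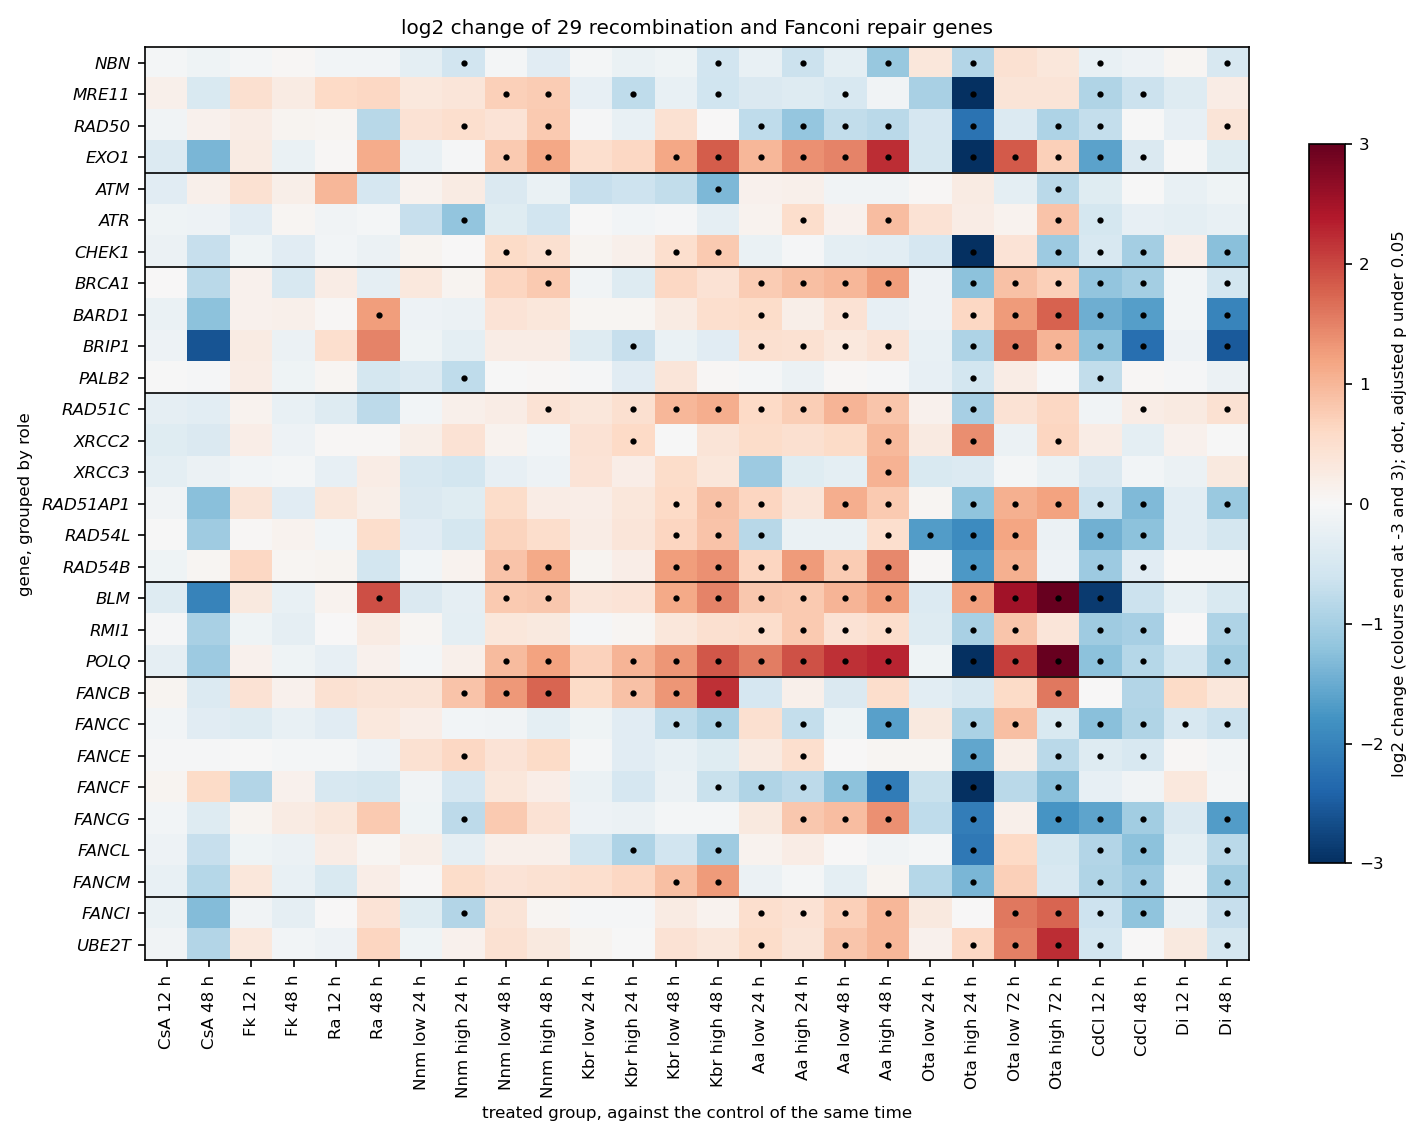
log2 change of each of 29 genes (rows, grouped by role) in each treated group against its control (columns). Colour gives the change and a dot a call at an adjusted p under 0.05. The 4 Aa columns and the late columns of Nnm, Kbr and Ota are red for POLQ, EXO1 and BLM, and the CdCl columns are blue for most genes.

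Aa raised members at both doses and both times. At the high dose 12 of 29 rose and 4 fell by 24 h, beside 26% and 23.9% of all genes tested, and 16 rose and 4 fell by 48 h, beside 29.8% and 34.5%. At the low dose 12 rose and 3 fell by 24 h, beside 10.2% and 13%, and 13 rose and 3 fell by 48 h, beside 17.7% and 19.3%. The members' medians were 0.36, 0.54, 0.30 and 0.13 in that order, against 0.01, -0.04, -0.02 and 0.00 over all genes. EXO1, BRCA1, BRIP1, RAD51C, RAD54B, BLM, RMI1, POLQ and FANCI rose in all 4 comparisons, in which the doses share the controls of each time. RAD50 and FANCF fell in all 4 on the probe sets used.

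Kbr and Nnm raised members at 48 h. There the high dose of Kbr raised 10 and lowered 6, beside 22.2% and 28.9% of all genes, and its low dose raised 10 and lowered 1, beside 15.2% and 14.3%. At 48 h Nnm raised 10 at the high dose, beside 15.4%, and 7 at the low dose, beside 8.39%, and lowered none, beside 12.3% and 5.73%. At 24 h the high dose of Kbr raised 4 and lowered 3 (8.17% and 13.4%), and that of Nnm raised 3 and lowered 5 (17.6% and 18.4%). Of the members, that is 13.8% and 10.3% with Kbr and 10.3% and 17.2% with Nnm, near or below the shares of all genes except for the rises with Kbr.

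With Ota the direction turned with time. The high dose lowered 20 members and raised 4 by 24 h, beside 43.6% and 21.4% of all genes, and raised 12 and lowered 7 by 72 h, beside 25.3% and 37.9%. The low dose lowered 1 (RAD54L) at 24 h, beside 9.99%, and raised none, beside 3.72%. At 72 h it raised 13, beside 9.01%, and lowered none, beside 7.02%. The median of all genes in the high dose at 24 h was itself -0.288 and moved by 0.215 under quantile normalization. Against that, the members' median was -0.99.

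CdCl and Di lowered members. CdCl lowered 23 by 12 h and raised none, beside 34.3% and 14.5% of all genes, and lowered 17 and raised 1 by 48 h, beside 23.5% and 22.9%. Di lowered 1 by 12 h (8.23%) and raised none (3.61%), and lowered 14 and raised 2 by 48 h, beside 25.9% and 21.4%. Ra at 48 h raised 2, beside 1.87%, and lowered none, beside 7.46%.

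**Figure D2:**
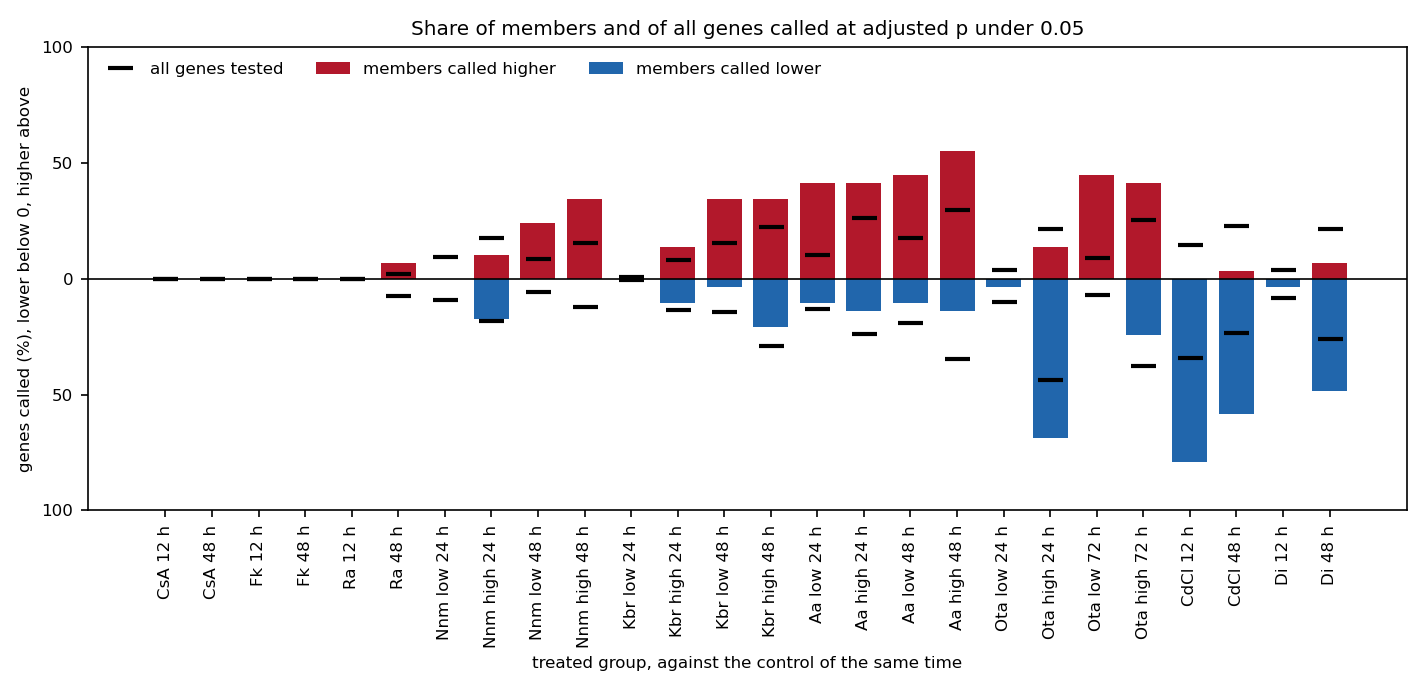
Share of the 29 members called higher (red bars, above 0) and lower (blue bars, below 0) in each treated group, in percent, with a black mark for the share of all genes tested. The red bars pass the marks in all 4 Aa groups and in the 48 h groups of Kbr and Nnm, and the blue bars pass them with Ota high at 24 h, CdCl at both times and Di at 48 h.

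In the vehicle controls, members fell with time in culture. In the later against the earlier controls, 17 of 29 fell and none rose in the Ota family (15.3% lower and 13.6% higher over all genes), and 21 fell and 3 rose in the CdCl and Di family (29.3% and 19.7%). In the CsA family 8 fell and 1 rose (6.63% and 6.89%), in the Fk and Ra family 6 fell and none rose (8.18% and 7.80%), in the Aa family 2 fell (0.783%) and in the Nnm and Kbr family 2 fell (0.290%), with no rise in either (0.468% and 0.308%). BLM fell in all 6, with changes from -3.44 to -0.79. The change of POLQ was -3.15 ± 0.248 (SE, n = 3 against 3) in the Ota controls and that of EXO1 -3.02 ± 0.147 in those of CdCl and Di. The counts in the 4 smaller families rested on single arrays: they ran from 2 to 8 (CsA), 2 to 12 (Fk and Ra), 0 to 5 (Aa) and 0 to 2 (Nnm and Kbr) when 1 array was left out.

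**Figure D3:**
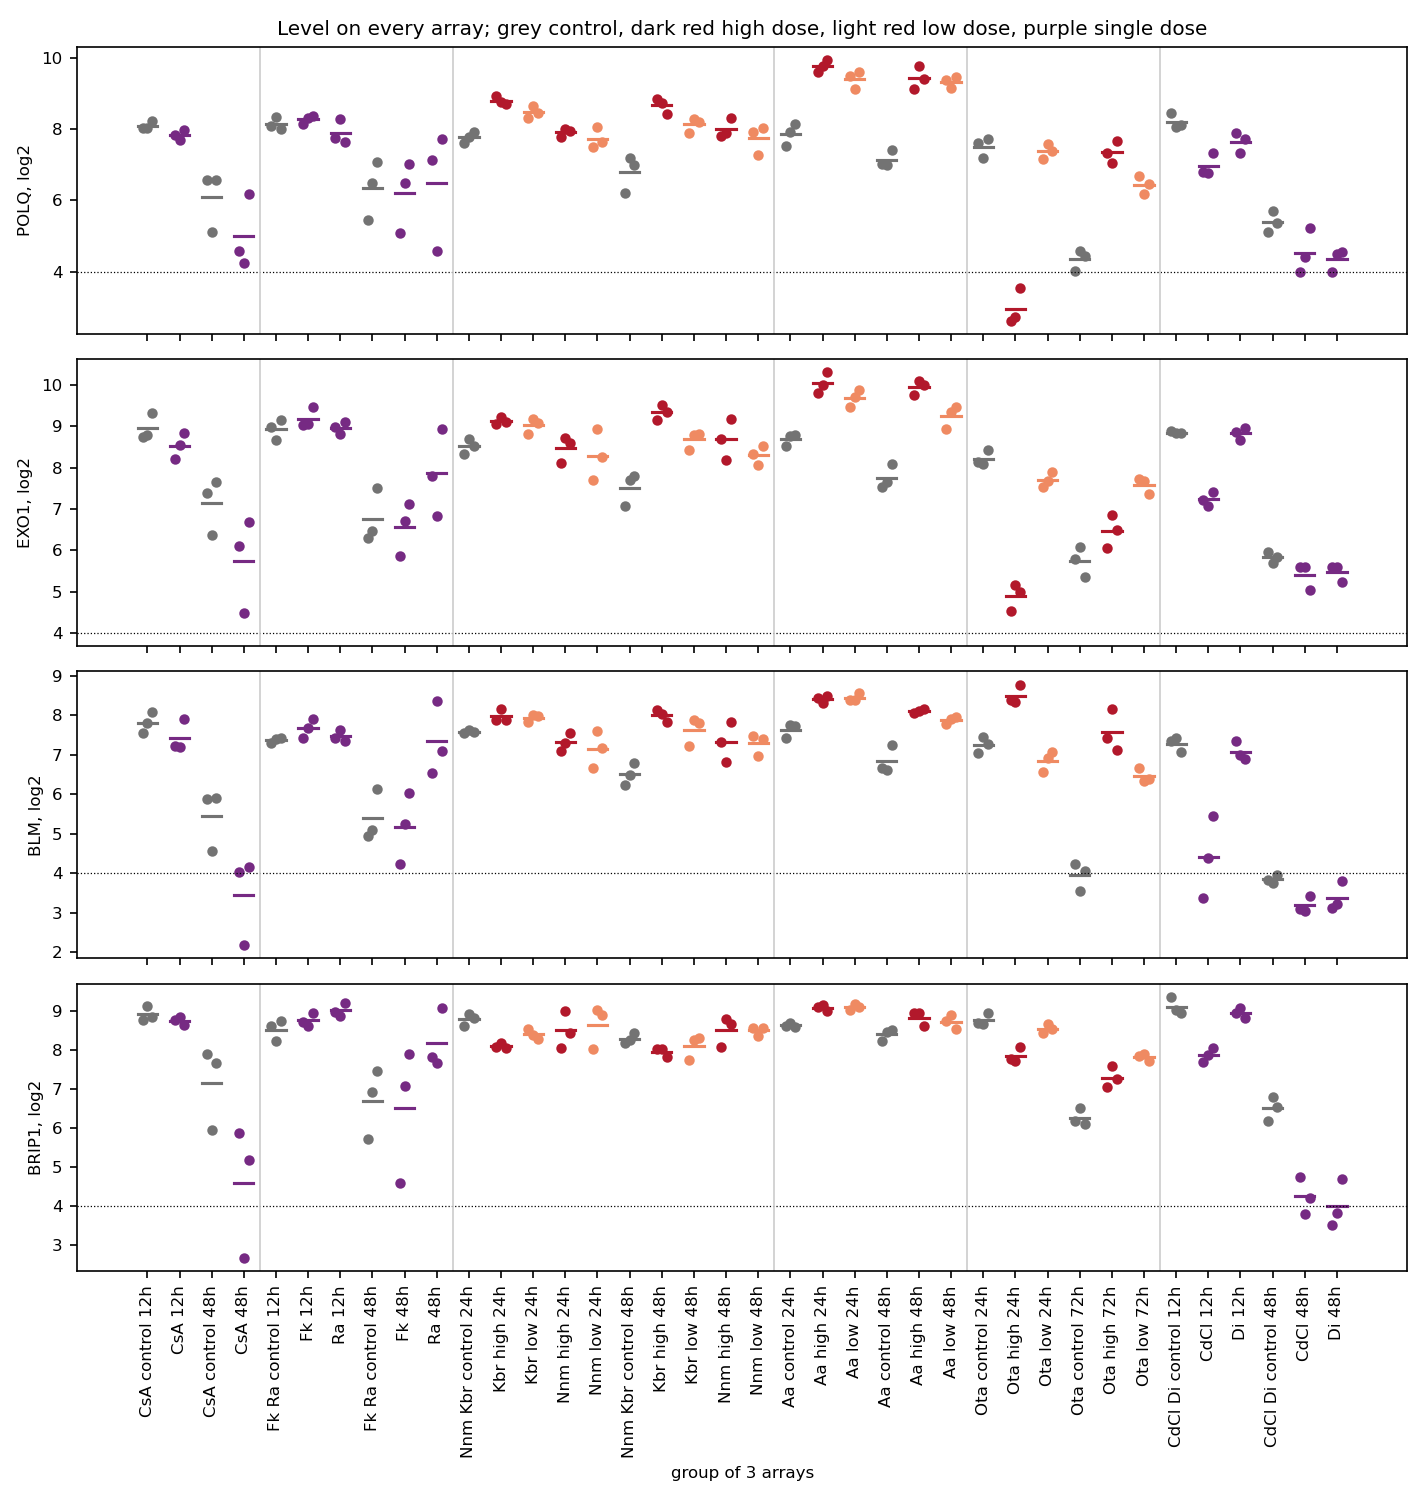
Level on each of 3 arrays per group (points) and their mean (bar) for POLQ, EXO1, BLM and BRIP1, log2. Vertical lines part the control families and the dotted line is the level of 4. Grey control points are lower at the later time, and the late points of Aa, Nnm, Kbr and Ota lie above their own controls for POLQ and BLM.

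This fall sets what a higher level at a late time is measured against. Of the 17 members that fell in the Ota controls, 16 had a mean at the low dose for 72 h between the late and the early control, 1 lay above the early control and none below the late one. With the high dose for 72 h, 4 lay above the early control, 8 between and 5 below the late control. Of the 21 that fell in the CdCl and Di controls, 18 lay below the late control with CdCl at 48 h and 18 with Di. These counts share the late control with the tests above and describe levels only.

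POLQ was at 7.61, 7.18 and 7.73 in the 24 h controls of Ota and at 2.63, 2.73 and 3.55 with the high dose, all 3 below background. Its change was -4.54 ± 0.248 (adjusted p = 5.64e-10), and -3.51 with values under 4 set to 4, so its size rests on levels below background. At 72 h the order turned, with 4.04, 4.59 and 4.45 in the controls and 7.34, 7.06 and 7.66 at the high dose (2.99 ± 0.248, adjusted p = 5.92e-08), so that the treated arrays at 72 h were near the level of the 24 h controls. With Aa for 48 h POLQ was at 9.12, 9.75 and 9.40 at the high dose and 9.37, 9.15 and 9.46 at the low dose, against 7.02, 6.98 and 7.42 in their controls. The rises were 2.29 and 2.19, both with an SE of 0.195 (adjusted p = 1.39e-07 and 2.80e-06), and neither dose overlapped the controls.

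BLM, the helicase that dissolves joined recombination intermediates, was at 4.24, 3.56 and 4.06 in the 72 h controls of Ota. It was at 7.43, 8.15 and 7.12 with the high dose and at 6.67, 6.34 and 6.39 with the low dose, changes of 3.61 and 2.51 with an SE of 0.243 (adjusted p = 7.33e-09 and 8.57e-06). The controls were about the background level, and with values under 4 set to 4 the changes were 3.47 and 2.37. The 3 groups did not overlap. BLM also rose at 24 h with the high dose, from 7.05, 7.44 and 7.28 to 8.39, 8.33 and 8.78 (1.24 ± 0.243), where POLQ, EXO1 and CHEK1 fell. With CdCl for 12 h it was at 3.36, 4.39 and 5.46, against 7.34, 7.43 and 7.08 in the controls, a change of -2.88 ± 0.357 (adjusted p = 1.30e-05) with a wide spread among the treated arrays. RMI1, its partner, moved less: it rose in 5 and fell in 4 comparisons, by at most 0.83 up and 1.06 down.

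EXO1, the nuclease of long resection, was at 8.13, 8.09 and 8.43 in the 24 h controls of Ota and at 4.53, 5.17 and 5.00 with the high dose (-3.32 ± 0.227, adjusted p = 6.53e-09). At 72 h it was at 5.80, 6.07 and 5.36 in the controls, 7.72, 7.67 and 7.35 at the low dose (1.83 ± 0.227, adjusted p = 9.20e-05) and 6.06, 6.86 and 6.48 at the high dose (0.72 ± 0.227). Only the low dose was clear of the controls. With Aa at the high dose for 48 h EXO1 was at 9.76, 10.1 and 10.0, against 7.53, 7.65 and 8.09 (2.21 ± 0.186, adjusted p = 1.20e-07). With Kbr at the high dose for 48 h it was at 9.14, 9.52 and 9.34, against 7.07, 7.69 and 7.79 (1.81 ± 0.261, adjusted p = 5.93e-06).

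MRE11, NBN and RAD50 form the complex that first binds a broken end. NBN fell in 7 comparisons and rose in none, by 1.14 ± 0.12 at most (Aa high, 48 h). NBN and MRE11 fell with Ota high at 24 h and with CdCl at 12 h, as EXO1 did. The change of MRE11 was -3.14 ± 0.36 with Ota high at 24 h, from 8.02, 7.71 and 8.20 to 3.63, 5.42 and 5.48. RAD50 cannot be given 1 direction. Its brightest probe set fell in all 4 Aa comparisons while another rose, by 2.06 and 2.21 at 24 h (high and low dose) and by 1.47 and 1.44 at 48 h, and the third was not called in any of the 4. With Ota at the high dose for 24 h the first fell by 2.21 and the second rose by 3.39. BARD1 also had probe sets called in opposite directions, with Ota at 24 h: 0.63 and -0.807 at the high dose.

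Of the checkpoint kinases, which signal a break or a stalled fork to the cell cycle, CHEK1 moved most. It fell from 9.11, 9.47 and 9.52 to 4.77, 4.52 and 5.28 with Ota at the high dose for 24 h, a change of -4.52 ± 0.205 (adjusted p = 1.07e-10). CHEK1 was still lower than its controls with Ota high at 72 h, with a change of -1.09 (adjusted p = 0.000242). It rose by 0.49 to 0.78 in the 48 h groups of Nnm and Kbr at both doses, and fell with CdCl at both times and with Di at 48 h, by 0.49, 1.02 and 1.26. ATM, the kinase for double-strand breaks, was called in 2 comparisons, Kbr high at 48 h (-1.34 ± 0.36) and Ota high at 72 h (-0.81 ± 0.23). ATR, the kinase for single-stranded DNA, rose by 0.53 and 0.92 with Aa high at 24 and 48 h and by 0.84 with Ota high at 72 h, and its changes were -1.19 with Nnm high at 24 h and -0.54 with CdCl at 12 h.

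BRCA1, a ubiquitin ligase with BARD1, was at 9.66, 9.22 and 9.36 with Aa high for 48 h, against 8.41, 7.82 and 8.26 (1.25 ± 0.192, adjusted p = 4.16e-05). It was at 7.42, 7.30 and 7.99 with Ota high for 24 h, against 8.77, 8.71 and 8.90 (-1.23 ± 0.163, adjusted p = 7.87e-06). With CdCl it was at 7.61, 7.27 and 7.71 at 12 h, against 8.70, 8.83 and 8.61, and at 7.19, 6.66 and 6.94 at 48 h, against 7.83, 8.03 and 8.02. Those falls were 1.18 and 1.03 with an SE of 0.160 (adjusted p = 3.00e-05 and 8.99e-05), and in all 4 comparisons the arrays were apart.

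BRIP1, the helicase bound to BRCA1, had the largest falls late with CdCl and Di. At 48 h its controls were at 6.19, 6.80 and 6.53, CdCl was at 4.75, 3.80 and 4.19 and Di at 3.50, 3.81 and 4.69. The changes were -2.26 and -2.51 with an SE of 0.274 (adjusted p = 8.14e-06 and 2.45e-06), and the treated arrays reached background. At 12 h CdCl was at 7.69, 7.88 and 8.06 against 9.37, 9.03 and 8.94 (-1.24 ± 0.274, adjusted p = 0.00179). In contrast, BRIP1 rose with Ota low at 72 h, from 6.17, 6.52 and 6.09 to 7.85, 7.89 and 7.73 (1.56 ± 0.159, adjusted p = 1.42e-05). PALB2, which binds BRCA1, fell in 3 comparisons, by 0.55 to 0.77, and rose in none.

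Among the genes of strand pairing and exchange, RAD54B, a DNA translocase, was at 8.88, 9.10 and 9.08 with Aa high at 24 h, against 7.66, 7.95 and 7.66 (1.27 ± 0.140, adjusted p = 3.97e-06). At 48 h it was at 8.52, 8.78 and 8.70, against 7.38, 6.92 and 7.40 (1.44 ± 0.140, adjusted p = 5.07e-07). The Kbr high arrays at 48 h were at 8.31, 8.27 and 8.10, against 6.46, 7.00 and 7.08 (1.38 ± 0.243, adjusted p = 6.28e-05). With Ota high at 24 h it fell, from 7.05, 7.48 and 7.47 to 5.52, 5.53 and 5.80 (-1.72 ± 0.143, adjusted p = 5.39e-08). No treated array overlapped a control in these 4 comparisons.

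RAD51AP1, which helps strands pair, was among the brightest members, with a mean of 10.2 over all arrays. With Ota high it was at 9.27, 9.24 and 9.46 at 24 h, against 10.6, 10.1 and 10.9, and at 10.5, 10.1 and 10.7 at 72 h, against 9.05, 9.49 and 9.16. The changes were -1.21 and 1.21 with an SE of 0.195 (adjusted p = 5.74e-05 and 5.92e-05), equal in size and opposite. At 48 h it was at 8.50, 8.02 and 8.60 with CdCl and 8.30, 8.78 and 8.65 with Di, against 9.66, 9.94 and 9.48 (-1.33 and -1.12, SE 0.235, adjusted p = 0.000290 and 0.00111). RAD51C rose in 10 comparisons, by at most 1.10 ± 0.14 (Kbr high, 48 h), and fell in 1. XRCC2 rose in 4, the largest being 1.39 ± 0.21 with Ota high at 24 h. XRCC3 was called once, and its mean over all arrays of 4.74 was close to background.

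Members of the Fanconi core complex did not move as a block. FANCG fell in 6 of the 26 comparisons and rose in 3. Its changes were -2.08 and -1.78 with Ota high at 24 and 72 h, -1.59 with CdCl at 12 h and -1.68 with Di at 48 h. With Aa high at 48 h FANCG rose by 1.38 ± 0.18 while FANCF fell by 2.09 ± 0.19 and FANCC by 1.62 ± 0.180. FANCC was at 6.24, 6.16 and 6.52 there, against 8.24, 7.92 and 7.63 (adjusted p = 1.72e-06). It was at 6.78, 6.77 and 6.40 with CdCl at 12 h, against 7.85, 7.91 and 7.96 (-1.26 ± 0.10, adjusted p = 1.79e-07). With Kbr high at 48 h it was at 6.99, 6.96 and 6.87, against 8.08, 7.79 and 7.83 (-0.96 ± 0.168), and with Ota high at 24 h at 6.72, 6.78 and 7.02, against 7.90, 7.86 and 7.61 (-0.95 ± 0.151, adjusted p = 6.05e-05 and 4.94e-05). FANCC thus fell in 10 comparisons and rose in 1, Ota low at 72 h (0.90 ± 0.151), and the treated and control arrays were apart in all 11.

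FANCB, a core subunit beside FANCL, gave the largest rise with Kbr and with Nnm at 48 h at the high dose. It was at 6.83, 6.92 and 6.73 with Kbr and 6.42, 5.79 and 6.97 with Nnm, against 4.11, 4.85 and 4.98, changes of 2.18 and 1.75 with an SE of 0.30 (adjusted p = 3.03e-06 and 0.000339). Its Nnm call was lost when the arrays of that comparison were fitted alone. FANCL, the ubiquitin ligase of the complex, fell in 6 comparisons and rose in none, with changes of -2.15 ± 0.28 with Ota high at 24 h and -1.24 ± 0.10 with CdCl at 48 h. FANCF fell in 7, but in the 4 Aa comparisons its calls were lost, or at 24 h turned to 0.352 (high) and 0.166 (low), when probe sets whose names end in _x_at or _s_at were left out, the high dose at 48 h excepted.

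FANCI and UBE2T both rose with Aa low at 24 h, Aa at either dose at 48 h and Ota at either dose at 72 h, and both fell with CdCl at 12 h and Di at 48 h. With Ota high at 72 h UBE2T was at 11.3, 11.6 and 11.6, against 9.35, 9.28 and 9.21 (2.21 ± 0.14, adjusted p = 4.68e-09), and FANCI was at 9.57, 9.64 and 9.66, against 7.84, 8.19 and 7.62 (1.74 ± 0.14). Both were clear of their controls. The low dose raised them by 1.51 and 1.59. They parted at 48 h with CdCl, where FANCI fell by 1.20 ± 0.08 and UBE2T was not called. At 24 h only FANCI was called with Aa high, as higher, and with Nnm high, as lower (-0.878). With Ota high at 24 h only UBE2T was called, as higher.

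The dose was tested within each compound and time. With Aa, high against low gave 3 higher and 2 lower members at 24 h (16.6% and 9.79% of all genes) and 6 higher and 4 lower at 48 h (20.3% and 24.5%). FANCC differed most, by -1.20 ± 0.180 and -1.50 ± 0.180 (adjusted p = 0.000218 and 1.52e-05), while POLQ was not called different between the doses at either time. With Ota, high against low gave 4 higher and 18 lower at 24 h (19.6% and 39.4%) and 7 higher and 10 lower at 72 h (20.9% and 37.0%). CHEK1 was lower at the high dose at both times, with differences of -4.0 and -1.49 and an SE of 0.205, and BLM was higher at both, by 1.65 and 1.10 with an SE of 0.243. Between the doses of Nnm or Kbr limma called no member, and at an unadjusted p under 0.05 there were 1 of 29 for Nnm at either time, 1 for Kbr at 24 h and 6 for Kbr at 48 h. With all arrays and no block, 0% of all genes were called for Nnm. For Kbr 0.00906% were called higher and 0.0453% lower at 24 h, and 1.71% higher and 6.32% lower at 48 h. With the replicate block 3 members were called for Kbr at 48 h, and shares of all genes in that fit are not given here. Without replicate 2 of Nnm 8 members were called for Nnm at 24 h, beside 9.61% of all genes higher and 11.1% lower in that fit. At 48 h 3 were called, beside 4.2% and 5.15%. The Aa count at 24 h ran from 3 to 6 with 1 array left out, and was 11 with the replicate block.

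Whether a response changed between the times was tested as a difference of differences. For Ota high it was higher at 72 h for 22 members and lower for 2 (32.7% and 20.6% of all genes), and for Ota low higher for 12 and lower for none (4.77% and 1.54%). EXO1 differed by 4.04 ± 0.322 at the high dose (adjusted p = 2.04e-07) and BLM by 2.92 ± 0.344 at the low dose (adjusted p = 0.000325). POLQ was also called higher at the high dose, where its 24 h level was below background. ATM and XRCC2 were the 2 that went the other way at the high dose. With Aa high 2 rose (EXO1 and FANCI, 6.63%) and 2 fell (FANCF and FANCC, 12.2%) in response between 24 and 48 h. That count ran from 1 to 9 when 1 array was left out and was 12 with the replicate block. The response to Aa low, Kbr and Nnm at either dose, CsA, Fk or Ra differed between the times for no member by limma, with 5, 9, 4, 10, 10, 3, 1 and 4 of 29 at an unadjusted p under 0.05 for Aa low, Kbr high, Kbr low, Nnm high, Nnm low, CsA, Fk and Ra. With all arrays and no block, 1.11% of all genes were called higher and 0.198% lower for Aa low. The shares were 0.580% and 1.31% for Kbr high, 0% and 0.0459% for Ra, and 0% for the others. With the replicate block 6 members were called for Kbr high and 2 for Aa low. Shares of all genes in that fit are not given here. Without replicate 2 of Nnm 13 members were called for Nnm high, beside 10.1% of all genes higher and 6.88% lower in that fit. For Nnm low 8 were called, beside 1.32% and 0.806%.

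**Figure D4:**
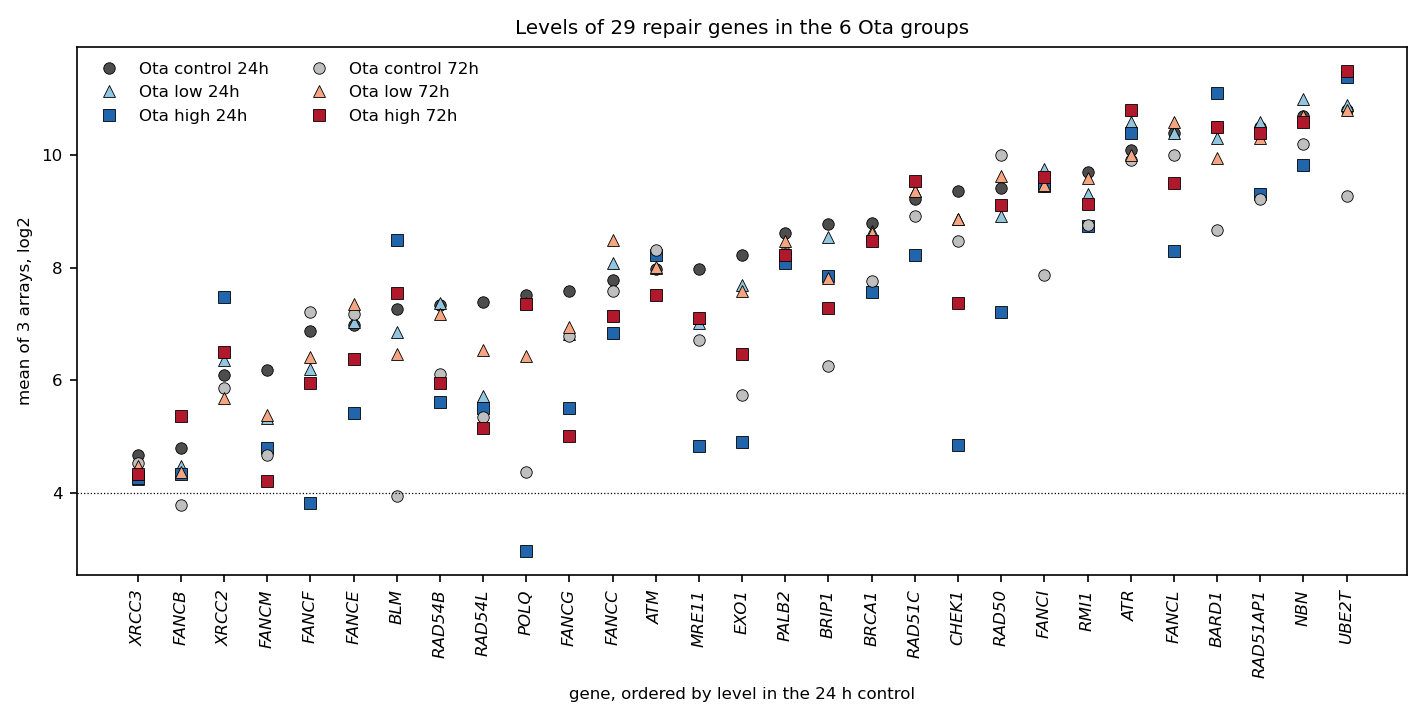
Mean level over 3 arrays of each of 29 genes (x axis, by level in the 24 h control) in the 6 Ota groups, log2. Blue squares (high dose, 24 h) lie far below the dark control circles for POLQ, CHEK1, EXO1 and MRE11, and red squares (high dose, 72 h) lie above the light control circles for BLM, POLQ and UBE2T.

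CdCl and Di, which shared controls, differed in when the members fell. Set against each other at 12 h, CdCl was lower for 21 of 29 and higher for none, beside 25.9% and 15.2% of all genes. The largest differences were in BLM (-2.67 ± 0.357), EXO1 (-1.60 ± 0.147) and BARD1 (-1.38 ± 0.19). EXO1 was at 7.22, 7.07 and 7.41 with CdCl and at 8.86, 8.67 and 8.96 with Di, against 8.87, 8.83 and 8.83 in the controls, so that the Di arrays lay about the control arrays. At 48 h CdCl was lower than Di for 7 and higher for 3 (19% and 23.6%), with MRE11 at -0.87 ± 0.16, FANCI at -0.51 ± 0.08 and UBE2T at 0.54 ± 0.11. From 12 to 48 h the response to CdCl was raised for 7 and lowered for 1 (21.1% and 9.34%), with BLM at 2.23 ± 0.505. That to Di was lowered for 9 and raised for 1 (16.2% and 17.5%), with BRIP1 at -2.35 ± 0.388. At 48 h BLM was below background on all 9 arrays of the controls, CdCl and Di, at 3.05 to 3.96.

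**Figure D5:**
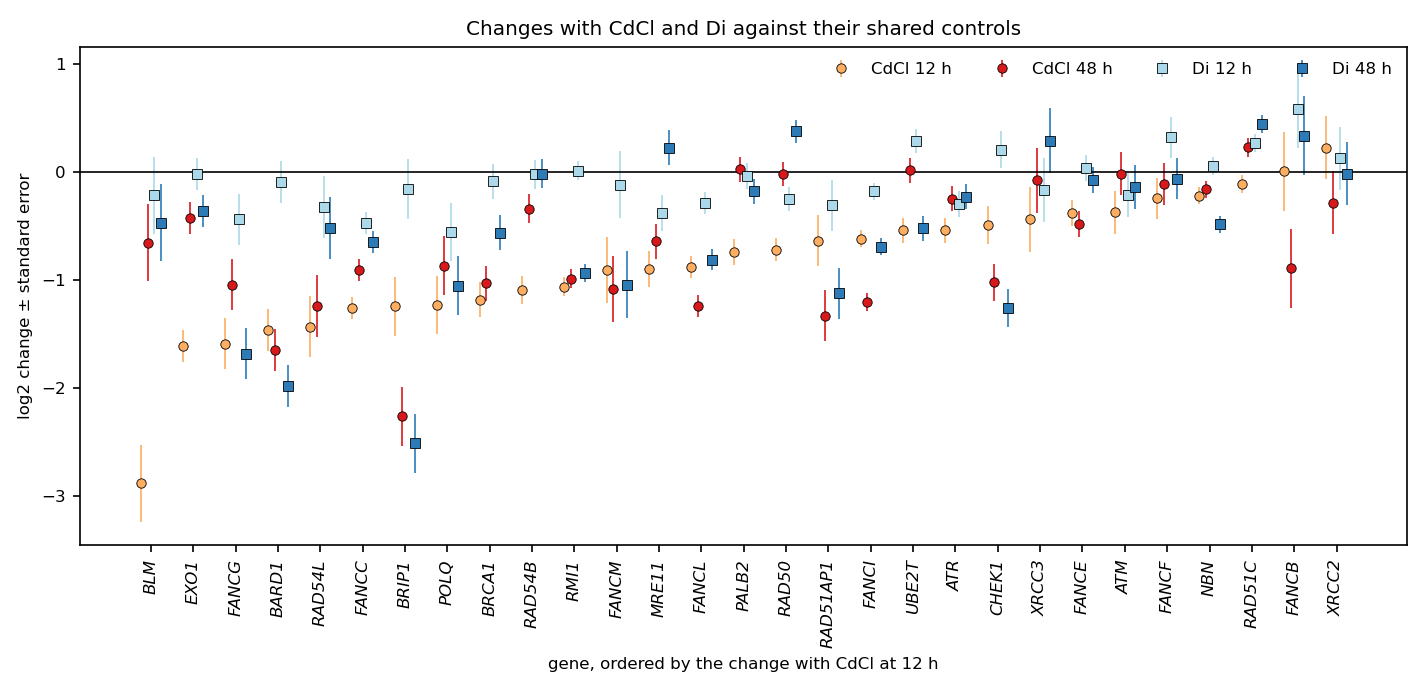
log2 change with its standard error for each of 29 genes, CdCl (circles) and Di (squares) at 12 h (orange and pale blue) and 48 h (red and dark blue). At 12 h the CdCl points lie below 0 for 27 genes, and the Di points of that time lie closer to 0 for BLM, EXO1 and BARD1. BRIP1 and BARD1 are lowest with Di at 48 h.

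Nnm and Kbr also shared controls, and their high doses were set against each other, without the doses being matched. Nnm was higher for 4 and lower for 7 members at 24 h (24.4% and 18.2% of all genes), and higher for 8 and lower for 6 at 48 h (32.5% and 24.2%). MRE11 was higher with Nnm at both times, by 1.13 and 1.35 with an SE of 0.24. FANCL was higher by 1.22 ± 0.23 at 48 h and POLQ was lower by 0.88 and 0.66 with an SE of 0.221. The MRE11 calls were lost without probe sets named _x_at or _s_at. Replicate 2 of Nnm bears on these results. ATR was at 8.39, 9.74 and 8.44 with Nnm high at 24 h and at 9.97, 10.0 and 10.1 in the controls, with 9.74 being replicate 2. Without that replicate at both doses and times, members called against the controls numbered 13 at the high dose and 7 at the low dose for 24 h, in place of 8 and 0, and 15 and 14 for 48 h, in place of 10 and 7. The directions were then 3 higher and 10 lower (25.9% and 26.3% of all genes in the same fit), 0 and 7 (19.3% and 17.8%), 12 and 3 (26% and 22%), and 13 and 1 (17.9% and 14.7%). When only the arrays of the comparison were fitted, Nnm at 48 h called 0 members at the high dose and 1 at the low dose. The counts of Kbr high at 24 h ran from 2 to 6 (7 with all arrays), and of Nnm low at 48 h from 1 to 9, with 1 array left out.

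CsA, Fk and Ra gave few calls. By limma, 0 of 29 passed an unadjusted p under 0.05 with CsA at 12 h and 14 at 48 h (13 of them lower), 1 with Fk at 12 h and 0 at 48 h, and 1 with Ra at 12 h. Of all genes, 6.23% had such a p with a higher and 6.74% with a lower level with CsA at 48 h, 0.379% and 0.435% with CsA at 12 h, 2.83% and 1.44% with Fk at 12 h, 2.16% and 1.04% with Fk at 48 h, and 4.34% and 2.82% with Ra at 12 h. After adjustment, 0% of all genes were called with CsA at 12 h and Fk at 48 h, and 0.00925% (CsA, 48 h), 0.00918% (Fk, 12 h) and 0.0367% (Ra, 12 h) were called higher and 0% lower. For Kbr low and Nnm low at 24 h, 4 members each passed the unadjusted threshold, beside 7.05% higher and 7.88% lower, and 16.6% and 16.1%, of all genes. There 0.671% and 9.39% of all genes were called higher and 0.689% and 9.13% lower. With CsA for 48 h BRIP1 was at 5.87, 2.67 and 5.18 against 7.89, 5.95 and 7.66, a difference that was not called. Same-numbered CsA arrays deviated together, which was taken as pairing of the cultures. With the number as a block 3 members were called, and shares of all genes in that fit are not given here. With Ra for 48 h BLM was at 6.55, 8.36 and 7.10 in replicates 1 to 3, against 4.95, 5.10 and 6.14 (1.94 ± 0.448, adjusted p = 0.0211). Without replicate 2, the array with the lowest upper quartile, it was 1.43 (adjusted p = 0.0594, and 0.00462 to 0.243 over all alternatives), and the count of 2 members ran from 0 to 5 over the arrays left out. BARD1 was the other.

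Genes of replication and mitosis moved beside the members, and their part in the results was not tested. With CdCl at 12 h 27 of 29 replication genes and 18 of 20 mitosis genes fell, and with Di at 48 h 26 and 20 fell. In the CdCl and Di controls 26 and 20 fell with time. With Ota low at 72 h 23 replication genes and 11 mitosis genes rose. With Ota high at 24 h 17 and 11 fell, POLA2, a subunit of the priming polymerase, by 4.20 and the cyclin CCNB1 by 3.69. Aa differed: at the high dose for 24 h 14 replication genes rose and 4 fell while 12 mitosis genes fell and none rose, and at the low dose for 48 h 12 and 16 rose with 4 and 0 falling. Of the 29 members, 12 rose and 4 fell in the first and 13 rose and 3 fell in the second. Among E2F factors and their partners, which drive S-phase genes, 10 of 13 fell with CdCl at 12 h (E2F8, with a change of -2.27), beside 34.3% of all genes. With Ota at 72 h 9 of 13 rose at either dose, beside 25.3% (high) and 9.01% (low).

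Of 30 tested further genes of recombination and the Fanconi pathway, the median change was closer to 0 than that of the members where both medians are given here. With Aa high at 48 h 9 rose and 8 fell (median 0.05, against 0.54), beside 29.8% and 34.5% of all genes, with the rises near that share. ERCC4, a nuclease subunit, rose by 1.46 while RAD51B fell by 1.81. With CdCl at 12 h 19 fell and none rose (-0.43, against -0.74), beside 34.3% and 14.5%, and RMI2 fell by 1.25. With Ota high 16 fell and 6 rose at 24 h, beside 43.6% and 21.4%. RPA2, a subunit of the single-strand binding protein, fell there by 3.33. At 72 h 13 fell and 6 rose (median -0.21, against 0.36), beside 37.9% and 25.3%. Of the 8 end-joining genes tested in each of these, which rejoin ends without a template, 4 fell and 1 rose with CdCl at 12 h and 3 rose and 1 fell with Ota high at 24 h. Of 14 damage signalling genes 11 fell and 1 rose with Ota high at 24 h, HUS1 by 4.24, and 10 fell and 1 rose with CdCl at 12 h. Among 16 p53 targets GADD45A, a stress-response gene, rose by 2.99 with CdCl at 12 h, where 4 rose and 9 fell, and by 3.01 with Aa high at 48 h, where 8 rose and 6 fell. The shares of all genes given above for each comparison stand beside the counts of these lists too.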

How the data were processed

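Affymetrix expression arrays of 114 HK-2 cultures were analysed. The deposited log2 values were made by the authors with GCRMA, per the submitters' processing notes, with all arrays normalized together, per the series' design text. The version is not given in the sources used here. Probe-level data were not used, so background correction could not be changed. The number of arrays limits the precision. Of 54675 probe sets, 41091 carry 1 gene symbol, 1801 carry several and 11721 carry none in the platform annotation. A gene was read on its probe set of highest mean. It was tested in a control family if above 4 on at least 3 of its arrays (10806 to 11138 genes). All 29 members passed in every family.

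limma 3.58.1 in R 4.3.3 fitted group means per family, with empirical Bayes moderation and Benjamini-Hochberg adjustment over all genes. There were 57 comparisons, of which the 4 between compounds were added after seeing the data. Code was checked on simulated data. Tables and figures used Python 3.11.15, pandas 2.3.3, numpy 2.4.6 and matplotlib 3.10.9. The members and lists were chosen with earlier results of these data known. Values per array are given for the 8 members called most often in up to 4 comparisons each, and otherwise up to 3 largest called rises and falls, plus members whose probe sets disagree. FANCB, CHEK1, MRE11, ATR, UBE2T and FANCI values per array, and changes outside those ranks, were chosen after their values were seen.

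Alternatives were no filter, the mean of all probe sets, no _x_at or _s_at probe sets, quantile normalization, only the arrays of a comparison, a replicate block, and each array left out. Values under 4 set to 4 were added after seeing the data. Same-numbered arrays deviated together in every pair of the CsA (lowest r 0.534, 6 pairs), Aa (0.280, 12) and Nnm and Kbr (0.139, 24) families, which was taken as pairing, and not in the other 3.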

Additional observations from a re-analysis of the deposited data

Results flagged for a closer look

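These results were flagged because effects under the same contrast differed between times or compounds in a test of the difference itself. Members whose response differed between the times numbered 24 for Ota high, 12 for Ota low, 10 for Di, 8 for CdCl and 4 for Aa high. For Ota high 75.9% of members were higher and 6.9% lower, beside 32.7% and 20.6% of all genes. For Ota low the shares were 41.4% and 0%, beside 4.77% and 1.54%. For Di they were 3.45% and 31%, beside 17.5% and 16.2%. For CdCl they were 24.1% and 3.45%, beside 21.1% and 9.34%, and for Aa high 6.9% and 6.9%, beside 6.63% and 12.2%. Members that differed between CdCl and Di numbered 21 at 12 h and 10 at 48 h, and between the high doses of Nnm and Kbr 11 at 24 h and 14 at 48 h. With CdCl against Di 72.4% of members were lower at 12 h and 0% higher, beside 25.9% and 15.2% of all genes. At 48 h 24.1% were lower and 10.3% higher, the rises below the 23.6% of all genes. With Nnm against Kbr 13.8% were higher and 24.1% lower at 24 h, beside 24.4% and 18.2%. At 48 h 27.6% were higher and 20.7% lower, both below the 32.5% and 24.2% of all genes. BLM was higher at 72 than at 24 h in the response to both Ota doses, while the response of ATM to Ota high was lower by 1.05 ± 0.32.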

How the results depend on the processing

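Counts below are members called, and changes of named members are log2. With the replicate block the counts became 3 (CsA, 48 h), 1 (Kbr low, 24 h), 3 (Nnm low, 24 h), 14 (Nnm low, 48 h, in place of 7), 11 (Aa doses, 24 h, in place of 5), 3 (Kbr doses, 48 h), 12 (Aa high response, in place of 4), 6 (Kbr high response), 2 (Aa low response), and 7, 8 and 11 in the Aa, Nnm and Kbr, and Fk and Ra controls. In Fk and Ra the numbers were not taken to pair the arrays. With no filter on low levels they became 4 (Kbr high, 24 h), 5 (Nnm high, 24 h), 4 (Nnm low, 48 h), 0 (Ra, 48 h, in place of 2), and 0 and 3 in the Nnm and Kbr and the Fk and Ra controls. Fitting only the arrays of a comparison gave 13 (Kbr high, 24 h, in place of 7), 1 (Nnm high, 24 h), 1 (Kbr low, 24 h), 0 and 1 (Nnm high and low, 48 h), 8 (Ota low, 24 h, in place of 1), 1 and 0 (Ra, 12 and 48 h), 0 (Di, 12 h), 2 (Aa doses, 24 h), 2 (Kbr doses, 48 h), and 7 and 8 (Nnm against Kbr, 24 and 48 h). Without replicate 2 of Nnm, an alternative chosen after seeing the data, the counts were 13 and 7 (24 h, high and low), 14 (48 h, low), 8 and 3 (doses, 24 and 48 h), and 13 and 8 (response, high and low).

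The mean of all probe sets gave 6 (Nnm high, 48 h), 2 (Ota low, 24 h), 1 (Ra, 48 h), 4 (Di, 12 h), 1 (Kbr doses, 48 h) and 1 (Nnm and Kbr controls). It reversed RAD50 with Aa high at 24 h (0.139), Aa low at 24 h (0.491) and 48 h (0.0776) and Di at 48 h (-0.257). Without probe sets named _x_at or _s_at there were 6 (Nnm high, 48 h), 10 (Aa low, 48 h), 3 (Aa doses, 24 h), 1 (Kbr doses, 48 h), 6 (CdCl against Di, 48 h) and 9 (Nnm against Kbr, 48 h). That reversed FANCF with Aa at 24 h (0.352 high, 0.166 low), MRE11 with Kbr high at 24 h (0.0503), and RAD50 with Aa low at 24 h (0.0179), Di at 48 h (-0.318) and in the Di response (-0.387). Quantile normalization gave 5 (Ra, 48 h), 2 (Di, 12 h) and 13 (Fk and Ra controls), and moved the share of all calls that were higher from 32.9% to 43.9% (Ota high, 24 h), 20.1% to 50.6% (Ra, 48 h), 30.5% to 42.4% (Di, 12 h), 33.2% to 46.0% (Ota doses, 24 h), 21.3% to 31.5% (Kbr doses, 48 h), 75.6% to 63.7% (Ota low response), 100% to 66.7% (Ra, 12 h) and 0% to 40.8% (Ra response). The cause was not tested.

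With 1 array left out, counts ran from 0 to 1 (CsA, 48 h), 2 to 6 (Kbr high, 24 h), 2 to 11 (Nnm high, 24 h), 0 to 2 (Nnm low, 24 h), 5 to 13 (Nnm high, 48 h), 7 to 11 (Kbr low, 48 h), 1 to 9 (Nnm low, 48 h), 0 to 5 (Ra, 48 h) and 1 to 3 (Di, 12 h). They ran from 3 to 6 (Aa doses, 24 h), 0 to 8 (Nnm doses, 24 h), 1 to 9, 0 to 1, 0 to 10 and 0 to 1 (response to Aa high, Kbr high, Nnm high and Ra), and 2 to 8, 0 to 5, 0 to 2 and 2 to 12 (controls of CsA, Aa, Nnm and Kbr, Fk and Ra). Of 167 named changes, 101 kept their direction and call under every alternative counted for them. The fit with no filter was not counted for these changes, and some genes were not tested without _x_at or _s_at probe sets.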
